A study of Sus scrofa with 80 samples.

Results

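The non-P450 detoxification enzymes of the Göttingen minipig were followed in 9 tissues from the first postnatal week to 2 years of age. They were chosen by name alone: every gene on the array whose symbol begins with UGT, SULT, GST, MGST, ALDH, AKR, CES or EPHX followed by the usual numbering, together with AOX1 and the NQO genes. This gave 49 members of 23736 genes on the array, made up of 8 UDP-glucuronosyltransferases, 7 sulfotransferases, 8 glutathione transferases, 14 aldehyde dehydrogenases, 7 aldo-keto reductases, 3 epoxide hydrolases, AOX1 and NQO1. A further 17 entries of the same families are listed on the array by a transcript accession. Those of AKR1E2, ALDH1L1, EPHX1 and GSTZ1 carry the symbol of a member and are second entries of that symbol. The 17 were not members by the rule and are given below, under their RefSeq symbols, as genes listed by accession.

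The animals were Göttingen minipigs, a small breed used in drug safety studies, from one breeder, and the labels name no treatment. Bone marrow, cerebellum, cerebral cortex, hypothalamus, kidney, liver and spleen came from a pair of pigs (1 male, 1 female) aged 1 week, from a 4-week pair, a 2-month pair and a 4-month pair, which gave 8 samples per tissue and 56 samples for the tests. Testis came from 1 male at each of these ages, ovary from 1 female, and a 2-year male added every tissue except ovary. That male was kept and fed apart from the young animals and its arrays lie on slides of their own, so age, animal, husbandry and slide cannot be told apart at 2 years and its values are only described. Male and female at one age are the only replicates, and the labels do not say which tissues came from one animal. Except in the test of sex, the p-values rest on a spread that mixes pig and sex. In the tests of later against earlier ages it also holds the ages joined in each group, and in the tests between tissues all ages. Tests over several tissues treated the samples as independent, though they may come from the same few pigs.

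Detoxification is usually described in phases. Aldehyde oxidase (AOX1), aldehyde dehydrogenases, aldo-keto reductases, carboxylesterases and epoxide hydrolases expose or change a reactive group on a drug or metabolite, working beside the cytochrome P450 enzymes. The transferases then attach a polar group, glucuronic acid by the UGT enzymes, sulfate by the SULT enzymes and glutathione by the GST enzymes, so that the product can leave through bile or urine. Liver is the main organ for these reactions and the proximal tubule of the kidney is the usual second one. Many conjugating enzymes are low at birth and mature after it.

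Levels are log2 intensities after background correction and quantile normalization, so 1 unit is a 2-fold difference. A probe's level cannot be set against another probe's, and all comparisons between samples are of 1 gene or of the sum of 1 marker list. A gene was taken as measured in a sample when the scanner software marked a probe of it as well above background. By this mark 17 members were measured in all 56 samples, and 4 (ALDH1A2, ALDH3B2, GSTM3 and NQO1) in none. Members measured in all 8 samples of a tissue numbered 34 for liver and 27 for kidney, and for the other tissues between 20 (cerebellum) and 24 (bone marrow). Between 57.7% and 74.7% of genes were well above background per array. The 8 repeat arrays of the 2-year kidney had a median SD of 0.0827 for the members. Tissue labels were checked with marker genes. Of 10 hepatocyte markers 9 were at least 4-fold higher in liver than in the mean of the other 6 tissues, SERPINA1 being the one that no liver sample measured. Of 8 proximal tubule markers 4 were higher in kidney, and of 5 markers of the loop and distal tubule 4 were.

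Liver had the most called members of the 7 tissues tested. Against the mean of the other 6 tissues, 22 of the 49 members were at least 4-fold higher in liver at an adjusted p under 0.05 (limma, Benjamini-Hochberg over 23722 genes), where 4.58% of all genes passed the same limits. The median difference was 1.38 for the members and -0.05 for all genes. In kidney 12 members passed, beside 3.76% of all genes, with a median of 0.28 against -0.07. Of the 22 liver members 11 were also called for kidney, which is 50% of the liver list and 91.7% of the kidney list, and ALDH1B1 was the single member called for kidney and not for liver. In bulk tissue a lower level can mean fewer cells of a type or less RNA per cell, and these cannot be told apart.

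**Figure D1:**
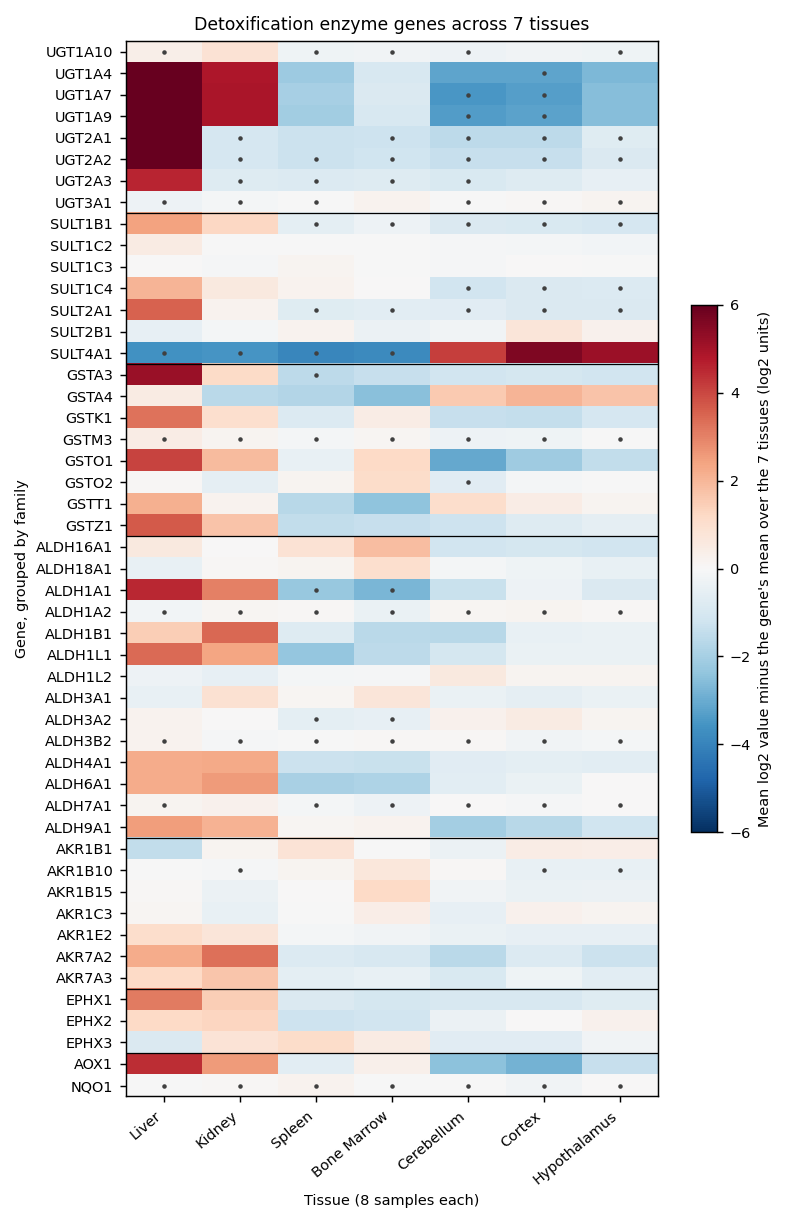
Mean log2 level of each of the 49 members in each of 7 tissues (8 samples each, 1 week to 4 months), drawn as the difference from that gene's mean over the 7 tissues, with colours clipped at 6 log2 units on either side. Dots mark tissues where no sample was well above background. The liver column holds the highest values for most UGT and GST genes, kidney shares a part of them, and SULT4A1 is seen in the 3 brain tissues.

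Of the 8 glucuronosyltransferases 6 were called for liver. UGT2A1 ranged from 10.38 over a median of 10.84 to 11.03 in the 8 liver samples. No other tissue among those tested had a mean above 2.63. It was at least 325-fold higher in liver than in the mean of the other tissues (limma, log2 difference 8.66, SE 0.14, adjusted p = 2.42e-49). In ovary, which was not tested, UGT2A1 was at 4.06 to 4.73 and measured in 2 of 4 samples. UGT2A2 behaved alike, with liver values from 10.23 to 11.09 and a difference of at least 303-fold, and the levels of the pair followed each other at r = 0.991 across the 56 samples, so that the probes may not separate these genes. UGT2A3 was at least 39.7-fold higher in liver (mean 8.10, SD 0.36, n = 8).

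The UGT1 genes, which conjugate bilirubin, phenols and many drugs, were high in both liver and kidney. UGT1A7 ran from 13.41 over a median of 13.55 to 13.99 in liver and from 10.68 over 11.26 to 11.78 in kidney. No sample of kidney reached the lowest of liver. It was at least 366-fold above the mean of the other tissues in liver and at least 53.1-fold in kidney. UGT1A4 and UGT1A9 gave nearly the same values (at least 350-fold and 365-fold in liver, at least 51.0-fold and 52.3-fold in kidney). Across the 56 samples the 3 genes correlated at r = 0.998 or more. UGT1A transcripts are known to share their last exons, and the probes may not separate the 3 genes. UGT1A10, otherwise an intestinal form, was well above background in 3 of 8 kidney and in no liver sample, and UGT3A1 in none of either. UGT2B31, listed by accession, was at least 691-fold higher in liver. UGT1A1, UGT1A6 and UGT2B17 were not found under these names.

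The sulfotransferases divided by tissue. SULT2A1, which sulfates bile acids and steroids such as DHEA, was called for liver, with values from 5.84 over a median of 7.21 to 7.53. It was at least 17.0-fold higher there than in the mean of the other tissues tested (limma, adjusted p = 1.81e-16). The 4-month male kidney, however, lay above every liver sample tested, and the 2-year male kidney lay within the liver range, as given below. SULT1B1, a thyroid hormone and phenol sulfotransferase, was at least 6.16-fold and SULT1C4 at least 5.17-fold higher in liver. SULT4A1, a brain member whose substrate is not settled, was well above background in all 24 samples of the 3 brain tissues and in none of the 4 other tissues tested. Its values were 11.06 to 11.88 in cortex, 10.67 to 11.17 in hypothalamus and 9.57 to 10.27 in cerebellum. Cerebellum lay below both other brain tissues in every sample, while cortex and hypothalamus overlapped. It was at least 83.9-fold, 56.9-fold and 25.2-fold above the mean of the respective other tissues. Among the genes listed by accession, SULT1E1, the estrogen sulfotransferase, was at least 105-fold higher in liver and at least 10.3-fold higher in kidney. SULT1A1 was not found under this name.

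Of the glutathione transferases 5 were called for liver. GSTA3, an alpha class enzyme that also isomerizes steroids, ran from 9.13 over a median of 9.99 to 10.58 in liver and was at least 65.8-fold higher there (adjusted p = 3.12e-37). GSTO1, an omega class enzyme that reduces dehydroascorbate and arsenicals, was 26.1-fold higher in liver (mean 12.76, SD 0.68, n = 8) and 4.57-fold higher in kidney (mean 10.61, SD 0.88). GSTZ1, which also acts in tyrosine breakdown, was 19.4-fold higher in liver, GSTK1 of mitochondria and peroxisomes 13.8-fold, and GSTT1 5.70-fold. GSTA4, which conjugates the lipid peroxidation product 4-hydroxynonenal, had its highest values in brain. It ran from 12.42 over 12.60 to 12.87 in cortex and from 11.85 over 12.28 to 12.79 in hypothalamus, 5.27-fold and 4.00-fold above the mean of the other tissues. The hypothalamus value lay at the 4-fold limit. In ovary, which was not tested, GSTA4 was at 12.62 to 13.31. In cortex, 4.61% of all genes were called, in hypothalamus 3.9%. By accession, GSTA1 was at least 803-fold higher in liver and at least 4.12-fold higher in kidney, and microsomal MGST1 4.75-fold higher in liver. GSTP1 was not found under this name.

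Aldehyde dehydrogenases were called in both liver and kidney. Of 14 members 5 were called for liver and 6 for kidney. ALDH1A1, the cytosolic enzyme that makes retinoic acid, ran from 9.02 over 9.88 to 10.31 in liver and from 6.99 over 8.14 to 10.26 in kidney, at least 38.5-fold and at least 11.4-fold above the other tissues. The groups overlapped, and the SD was 1.02 in kidney and 0.50 in liver. ALDH1L1, a folate enzyme, was 15.4-fold higher in liver and 6.77-fold in kidney. ALDH1B1, a mitochondrial acetaldehyde and retinal dehydrogenase, ran from 11.43 over 11.94 to 13.17 in kidney, above every other tissue's mean (6.99 to 10.16) and 16.2-fold above their average (adjusted p = 1.09e-32).

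ALDH4A1 of proline breakdown, ALDH6A1 of valine breakdown and ALDH9A1 of carnitine synthesis were higher in both organs, by 6.00-fold, 6.02-fold and 7.66-fold in liver and by 6.26-fold, 8.04-fold and 5.37-fold in kidney. ALDH16A1, which has no known catalytic activity in mammals, was the only member called for bone marrow (mean 7.12, SD 0.67, n = 8, 4.54-fold over tissues in which 32 of 48 samples measured it), where 4.22% of all genes passed. One of its probes was left out on 44 of the 80 arrays for marked spots. In cerebellum 3.72% of all genes passed, and in spleen 3.09%, where no member was called. Over these 5 tissues together 180 of 245 gene-by-tissue tests had an unadjusted p under 0.05 in either direction. ALDH2, the main acetaldehyde dehydrogenase, listed by accession, was 10.7-fold higher in liver.

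Of 7 aldo-keto reductases AKR7A2, an aflatoxin aldehyde and succinic semialdehyde reductase, was called for liver (mean 11.75, SD 0.43, n = 8, 6.00-fold) and for kidney (mean 12.84, SD 0.39, 14.5-fold). By accession, the steroid and carbonyl reductase AKR1C1 was at least 44.6-fold higher in liver and at least 127-fold in kidney, and AKR1CL1 at least 106-fold and 98.4-fold. AOX1, which oxidizes many drug heterocycles, ran from 9.91 over 11.24 to 12.47 in liver and from 8.52 over 9.32 to 10.15 in kidney, 36.3-fold and 7.84-fold above the mean of the other tissues. EPHX1, microsomal epoxide hydrolase, was 12.6-fold higher in liver (9.64 to 11.62), and 3.28-fold higher in kidney, under the 4-fold limit. EPHX2, soluble epoxide hydrolase, was 2.62-fold higher in liver and 2.84-fold in kidney. Its value is the mean of a probe pair that differed in level by 7.65, so these folds cannot show whether it is flatter than EPHX1. NQO1, a quinone reductase, stayed at background in every tissue tested. The carboxylesterases are all listed by accession. CES1, the main hydrolase of ester drugs, was at least 468-fold higher in liver, where 2 samples were saturated, and CES3 at least 88.8-fold. In kidney CES1 had a measured log2 difference of 7.27 from the other tissues, which include the saturated liver samples.

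Other genes of the pathway were set beside the members. In liver 3 of 9 genes that supply cofactors and sugar donors were called, PAPSS2 for active sulfate (log2 difference 2.84) and UGP2 and UGDH for UDP-glucuronic acid (2.64 and 2.12), and in kidney 0 of 9. Enzymes that turn glutathione conjugates into mercapturates were called more in number in kidney, 5 of 9, with DPEP1 at least 158-fold, ANPEP 44.4-fold, ACY1 22.0-fold and NAT8 at least 12.1-fold higher, than in liver, 3 of 9, with NAT8 at least 12.8-fold. That difference in number was not itself tested. Of 7 other conjugating enzymes 5 were higher in liver, led by GNMT (at least 178-fold) and NAT2 (difference 3.10), and GNMT alone in kidney (at least 7.81-fold). Of 10 alcohol, amine and purine oxidases 4 were higher in liver, with ADH1C at least 370-fold and ADH4 at least 365-fold, and 2 in kidney. Of 6 carbonyl reductases CBR1 was called for both organs and DHRS7 for kidney. Of 10 regulators 6 were higher in liver, among them FOXA2 (45.0-fold) and ONECUT1 (at least 34.0-fold). Of 10 partner enzymes 5 were higher in liver, LTC4S by 33.2-fold and PON1 by 18.5-fold, and CYB5A and PON1 in kidney.

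Changes with age were asked in 2 ways: between 1 and 4 weeks (2 samples against 2, with the spread pooled over 28 groups of tissue and age), and between the first weeks and later (4 samples at 2 and 4 months against 4 at 1 and 4 weeks, each tissue on its own). In liver 1 of 49 members passed after 4 weeks, beside 1.81% of all genes, and 11 had an unadjusted p under 0.05. The median difference was 0.09, against 0.02 over all genes. In the first weeks 3 passed, beside 4.34% of all genes, and all 3 were lower at 4 weeks, as 2.79% of all genes were.

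**Figure D2:**
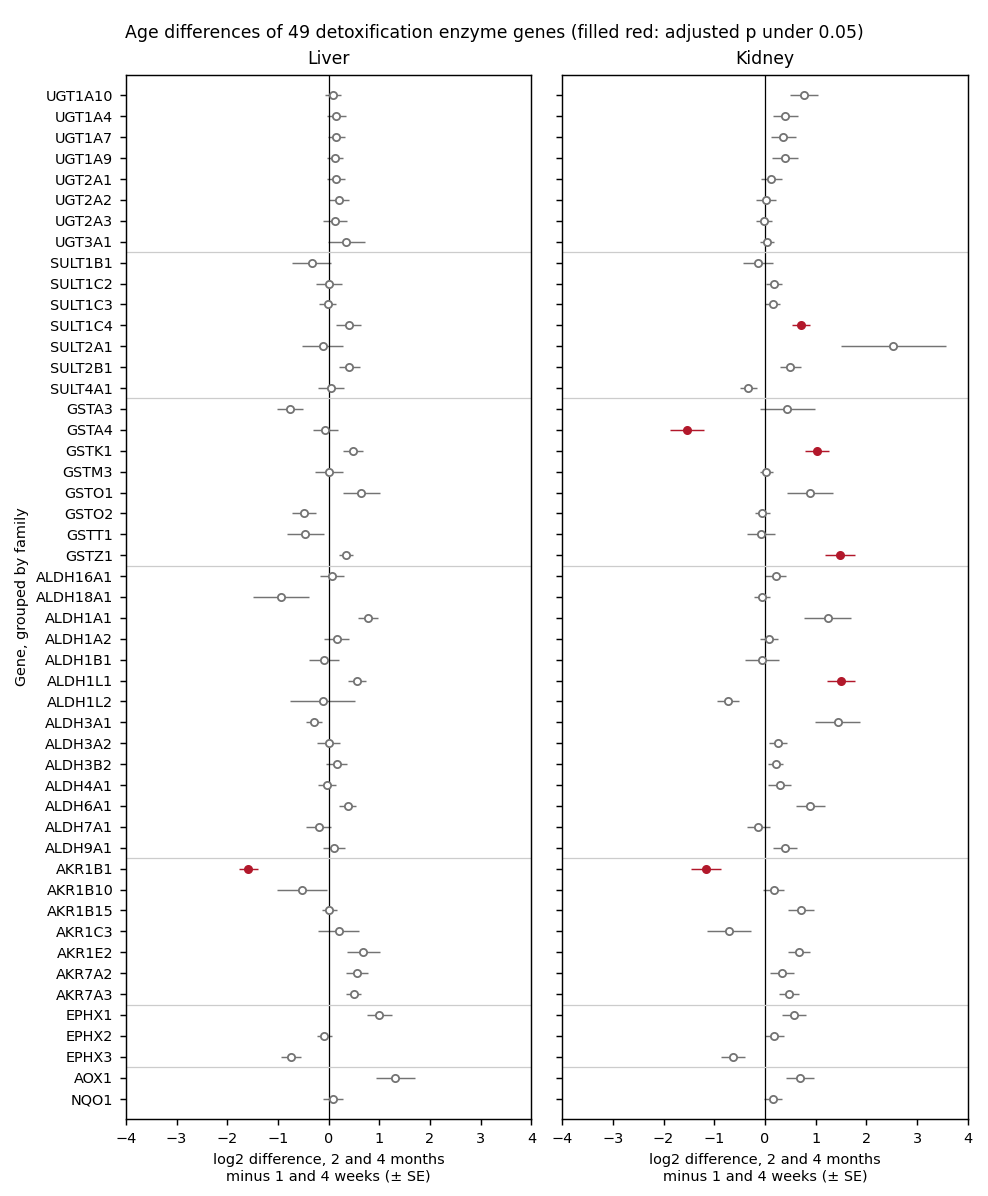
Log2 difference of the members between the samples of 2 and 4 months and those of 1 and 4 weeks, in liver and in kidney, each point 1 gene, with called members marked. In liver AKR1B1 alone is called (-1.59), and in kidney 4 members lie above 0 and 2 below it.

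AKR1B1, aldose reductase, which turns glucose into sorbitol, was the liver member that fell. Male and female had 10.51 and 10.58 at 1 week, 10.09 and 10.17 in the 4-week pair, 8.65 and 9.17 at 2 months and 8.68 and 8.50 at 4 months, and the 2-year male 8.33. All samples of 2 and 4 months lay below all younger ones. The mean went from 10.34 (SD 0.24, n = 4) to 8.75 (SD 0.29, n = 4), 3.00-fold lower, with an adjusted p of 0.00919 (limma, SE 0.19 on the log2 scale). Both of its probes gave the fall, -1.60 and -1.58. Over the same ages the summed hepatocyte markers lay between 17.26 and 17.40 in all liver samples. Marker sums, here and below, are the log2 of the summed intensities of a list. The brightest markers set them, so a steady sum does not show that the share of hepatocytes was steady. The 9 erythroid markers summed to between 15.83 and 17.02 in the first weeks and 15.37 to 16.17 later (SLC4A1 not measured, 0 of 9 called), and the 5 myeloid granule markers to between 9.63 and 12.78 and then 9.19 to 9.62. The part of blood-forming cells in the fall of AKR1B1 was not tested.

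EPHX1 and ALDH1A1 had older liver samples all above the younger ones without passing the test. EPHX1 had 9.64 and 10.17 in male and female at 1 week, 10.41 and 10.35 in the 4-week pair, 11.62 and 11.38 at 2 months and 10.82 and 10.74 at 4 months (difference 1.00, adjusted p = 0.0719, limma). ALDH1A1 had 9.02 and 9.06, then 9.74 and 9.72, 10.31 and 10.11, and 10.20 and 10.03 (difference 0.78, adjusted p = 0.0802, limma). The 2 values at 1 week were the lowest of these 8 liver samples for both genes. AOX1 overlapped between the age groups (difference 1.31, adjusted p = 0.109, limma). Of the genes listed by accession, CES3 rose from 9.64 to 10.79 (SE 0.15, adjusted p = 0.00987) and MGST1 from 11.80 to 12.45 (SE 0.14, adjusted p = 0.0458), each with no overlap. UGT1A7 and UGT2A1 were not called in liver at either step. UGT1A7 was at 13.74 and 13.48 in liver of male and female at 1 week and at 13.99 and 13.58 at 4 months, and UGT2A1 at 10.57 and 10.38, then 10.97 and 10.69.

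Between 1 and 4 weeks ALDH18A1, ALDH1L2 and GSTO2 fell in liver. ALDH18A1, the first enzyme of proline synthesis from glutamate, had 10.12 in the male and 9.73 in the female at 1 week and 8.71 and 7.74 at 4 weeks, 3.25-fold lower (SE 0.32, adjusted p = 0.000792). Later it went back to 9.15 in the 2-month female and stood at 7.31 in the 4-month female, so no steady course followed. ALDH1L2, a mitochondrial folate enzyme, had 5.95 and 6.02, then 5.14 and 3.43 (adjusted p = 0.0153), with 1 of 2 samples measured at 4 weeks. GSTO2, an ascorbate-regenerating omega enzyme, went from 4.32 and 4.42 to below the measured range, at least 1.74-fold lower (adjusted p = 0.0245). Without single samples ALDH18A1 kept its call in 3 of 4 fits (lost without the 4-week female), ALDH1L2 in 1 and GSTO2 in 0. Of the other pathway genes in liver, the alcohol dehydrogenase ADH4 rose 29.5-fold in these weeks, from 7.18 to 12.06, GNMT fell by 1.02 on the log2 scale and DPEP1 fell at least 4.79-fold. UGDH, which makes UDP-glucuronic acid for the UGT enzymes, rose by 1.51 after 4 weeks (adjusted p = 0.00987). In the same first weeks 5 of 9 erythroid, 2 of 5 myeloid and 2 of 5 bile duct markers fell in liver, and their part was not tested.

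In kidney 6 of 49 members passed after 4 weeks, beside 8.46% of all genes, a share near the background, and 19 had an unadjusted p under 0.05. The median difference was 0.21 for the members and 0.02 for all genes. ALDH1L1 had 10.22 and 10.55 in male and female at 1 week, 11.50 and 11.16 in the 4-week pair, 12.54 and 12.16 at 2 months and 12.72 and 12.02 at 4 months. It was 2.83-fold higher later, with no overlap (SE 0.28, adjusted p = 0.0163). GSTZ1 had 8.12 and 8.14, then 9.15 and 9.44, 10.20 and 10.11, and 10.49 and 9.97. It was 2.79-fold higher (SE 0.30, adjusted p = 0.0203), and 2.25-fold of rise was already seen between 1 and 4 weeks (adjusted p = 0.00121). GSTK1 was 2.03-fold higher later (8.44 to 9.46, adjusted p = 0.0303). SULT1C4 was at least 1.64-fold higher, from samples at background to 3 of 4 measured (adjusted p = 0.0368).

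GSTA4 and AKR1B1 fell in kidney. GSTA4 had 10.13 and 10.39 in male and female at 1 week, 9.01 and 9.34 in the 4-week pair, 7.52 and 8.80 at 2 months and 8.14 and 8.26 at 4 months, 2.90-fold lower (SE 0.34, adjusted p = 0.0268). AKR1B1 had 12.08 and 12.43, then 11.26 and 11.15, 10.56 and 10.82, and 10.12 and 10.77, 2.24-fold lower (SE 0.29, adjusted p = 0.0397). For both genes the later samples all lay below the earlier ones. The 6 calls depended on single pigs. Leaving out the 1-week female, the 2-month male or the 4-month male left 0 of them, and leaving out the 1-week male left ALDH1L1 alone. Of the genes listed by accession EPHX1 (difference 1.23, adjusted p = 0.0278), SULT1A3 (0.64, adjusted p = 0.0283) and ALDH1L1 (1.44, adjusted p = 0.0365) rose. EPHX1 and ALDH1L1 are here second entries of a member's symbol.

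**Figure D3:**
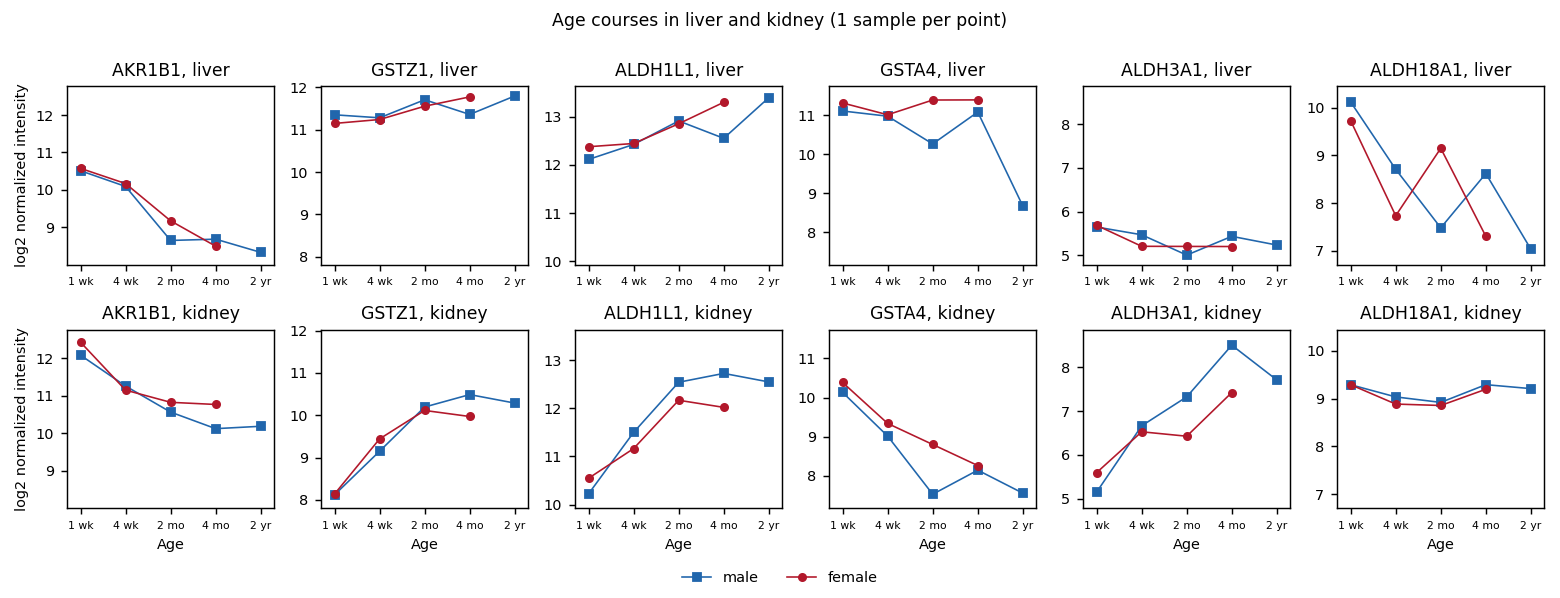
Log2 level of AKR1B1, GSTZ1, ALDH1L1, GSTA4, ALDH3A1 and ALDH18A1 in liver and kidney at each age, each point 1 sample with the sexes marked, each age a different pair of pigs, and the 2-year kidney point the mean of 8 repeat arrays. AKR1B1 falls in both organs, while GSTZ1, ALDH1L1 and ALDH3A1 climb in kidney and GSTA4 falls there while its liver difference is -0.07.

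Between 1 and 4 weeks 6 members passed in kidney, beside 2.18% of all genes, and 5 of them were higher at 4 weeks, as 1% of all genes were. AKR1B1 fell from 12.26 to 11.20 (SE 0.19, adjusted p = 0.00104), a call kept in 4 of 4 fits without single samples. The other calls rested on fewer of these fits, GSTZ1 on 3, ALDH4A1 on 2 and ALDH9A1, ALDH6A1 and ALDH3A1 on 1 each, and ALDH9A1 also lost its call with the processed signal, the authors' values and slide as a covariate, ALDH6A1 with slide. GSTZ1 rose from 8.13 to 9.30, ALDH4A1 by 0.84 (adjusted p = 0.00314), ALDH9A1 by 0.92 (adjusted p = 0.00882) and ALDH6A1 by 0.99 (adjusted p = 0.0176). ALDH3A1, which clears lipid aldehydes and is known from cornea, had 5.15 and 5.59 in male and female at 1 week and 6.66 and 6.53 at 4 weeks (adjusted p = 0.0114). It went on to 7.33 and 6.43 at 2 months and 8.51 and 7.42 at 4 months. Its probe pair did not follow each other across the 56 samples, though both rose here, by 0.94 and 1.51. Tubule markers moved over the same ages. The 8 proximal tubule markers summed to between 12.88 and 13.21 at 1 week, 13.71 and 13.88 in the 4-week pair, and 13.72 and 14.53 later, with 1 of 8 higher in the first weeks and 2 of 8 later. The 5 collecting duct markers summed to between 9.67 and 10.50 in the first weeks and 10.14 and 11.10 later, 2 of 5 higher. Their part in the enzyme changes was not tested.

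Among the other pathway genes of kidney, PAPSS2, which makes the sulfate donor, fell by 1.64 after 4 weeks (adjusted p = 0.00277), and it was the single call among 9 cofactor genes. GNMT rose by 1.64, GGT5 by 1.25, DHRS1 by 0.79, ADH1A by 0.78 and KEAP1 by 0.51, each the only call of its list. In the first weeks DPEP1 rose by 1.60 and ACY1 by 0.82, both of the mercapturate route, and PON1 by 1.82.

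Whether liver and kidney differed in these age changes was tested directly. The difference passed for 5 members, a share near the 8.05% of all genes that passed. ALDH3A1 changed by -0.29 in liver and 1.44 in kidney (difference -1.73, SE 0.28, adjusted p = 0.000110). GSTZ1 changed by 0.34 and 1.48 (difference -1.14, SE 0.21, adjusted p = 0.000666), and GSTA4 by -0.07 and -1.54 (difference 1.47, SE 0.31, adjusted p = 0.00256). These 3 kept the call in 16 of 16 fits that left out a sample, but GSTA4 lost it with slide as a covariate. ALDH1L1 (difference -0.94, adjusted p = 0.0431) and SULT2A1 (difference -2.65, SE 0.84, adjusted p = 0.0461) kept it in 5 of 16. The SULT2A1 value rested on the 2 older kidney males, the only ones of the 8 kidney samples above background, and went from -4.03 without the 4-month kidney female to -1.28 without the 4-month kidney male. The fall of AKR1B1 was called in both organs and its difference between them was not. Its liver call was kept in 8 of 8 fits without a sample, its kidney call in 3 of 8. The kidney call was also lost with the processed signal, an offset of 50 and the authors' values. By accession ALDH2 (difference 1.42, adjusted p = 0.0147) and SULT1E1 (difference 1.77, adjusted p = 0.00775) were called.

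In spleen 11 of 49 members passed between 1 and 4 weeks, in a tissue where 32.6% of all genes did. GSTO2 had 6.06 and 6.47 in male and female at 1 week, 3.43 and 3.23 in the 4-week pair, 2.83 and 3.11 at 2 months and 2.74 and 2.84 at 4 months, 7.66-fold lower over the first step (adjusted p = 1.82e-12). GSTO1 fell 5.11-fold (10.21 and 10.40 to 8.17 and 7.74), ALDH18A1 3.59-fold and ALDH16A1 3.24-fold. AKR1B1, which fell in kidney over the same weeks, rose in spleen from 11.00 and 11.58 to 13.01 and 12.97 (3.25-fold, adjusted p = 1.05e-08) and stood at 11.04 and 11.10 at 2 months. ALDH1L2 rose 4.35-fold, EPHX3 2.35-fold, GSTA4 1.97-fold, ALDH1B1 1.96-fold and ALDH4A1 1.47-fold. Without single samples GSTA4 kept its call in 1 of 4 fits and ALDH1B1 and ALDH4A1 in 2 each, and ALDH1B1 lost it with slide as a covariate. SULT1C4 was called with a difference of 0.97, but no sample at either age was measured.

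Markers of blood-forming cells moved in the same spleens. All 5 myeloid granule markers fell, from a sum of 12.77 to 13.56 at 1 week to 9.78 to 10.75 at 4 weeks, and 7 of 9 erythroid markers did, from 17.14 to 17.16 to 16.96 to 16.99. Their part in the enzyme values was not tested. In bone marrow 4 members passed, beside 10.8% of all genes. GSTK1 had 7.19 and 7.32 at 1 week, 9.19 and 9.31 in the 4-week pair, and 8.81 and 8.49 at 2 months, 3.98-fold higher over the first step (adjusted p = 6.50e-07). ALDH16A1 rose by 1.43, and GSTO2 and GSTZ1 fell by 1.23 and 0.69. The GSTZ1 call was kept in 1 of 4 fits without a sample and lost with slide as a covariate and with an offset of 50. In marrow 4 of 9 erythroid markers rose and 0 of 5 myeloid markers were called.

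In brain few members were called. In the first weeks no member passed in cerebellum, hypothalamus or cortex, where 0.712%, 0.232% and 0.0927% of all genes did. After 4 weeks, over brain tissues, spleen and bone marrow together, 1 of 245 gene-by-tissue tests passed, beside 1.58% over all genes, and 39 had an unadjusted p under 0.05. It was AKR1B1 in cerebellum, where 2.29% of all genes passed. It went from 10.93 to 10.33 (adjusted p = 0.0372), a call kept in 2 of 8 fits without a sample. By accession GSTA1 was at least 2.42-fold lower in cerebellum (adjusted p = 0.0271) and CES1 fell by 2.37 in spleen (adjusted p = 0.00237). SULT4A1 in cortex had 11.31 and 11.30 in male and female at 1 week and 11.59 and 11.88 at 4 months, and GSTA4 12.74 and 12.73, then 12.51 and 12.49.

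Between the sexes no member passed over the 28 pairs of the same tissue and age, where 0.253% of all genes did, and 8 members had an unadjusted p under 0.05 (limma with the pair as a block). With 1 male and 1 female per age, sex and animal cannot be told apart at any single age. The following genes were chosen after their values were seen and carry no test. In kidney SULT2A1 was at background in both sexes up to 4 weeks (2.02 to 2.63) and in the females after that (2.73 and 2.72), but had 5.74 in the male at 2 months, 8.22 at 4 months and 6.82 at 2 years. These 3 males were the only kidney samples of 9 where it was well above background. GSTA3 was higher in the kidney of the male by 2.55 at 2 months and 1.85 at 4 months, and ALDH1A1 by 1.04 and 1.96, with differences of no more than 0.39 in size for both at the earlier ages. Of the genes listed by accession, GSTA1 and ALDH2 ran the opposite way in kidney, lower in the male by 3.24 and 1.77 and by 1.34 and 2.05.

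**Figure D4:**
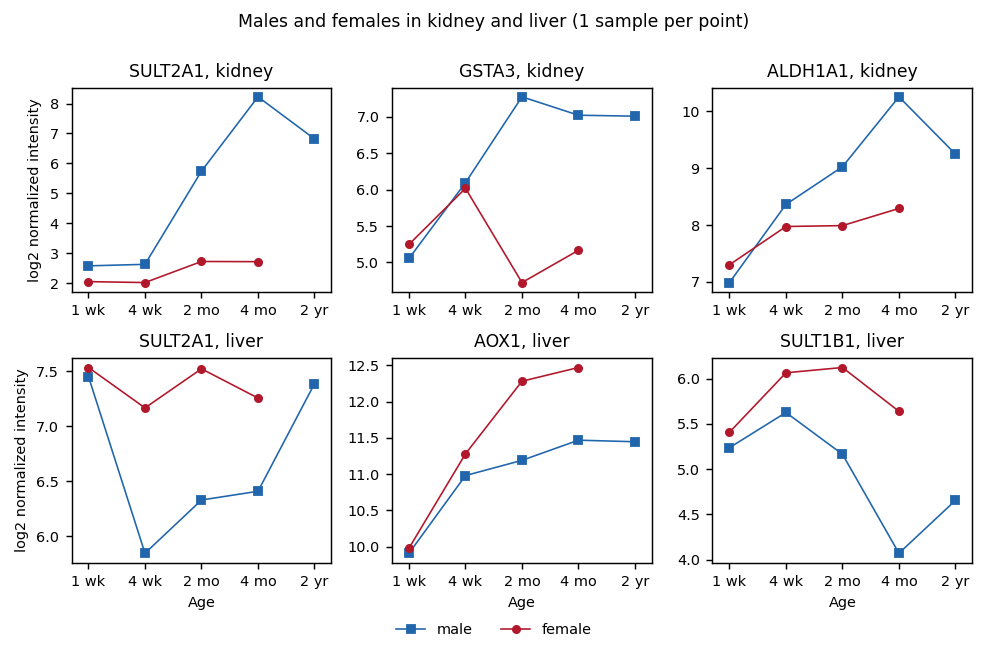
Log2 level by age and sex of SULT2A1, GSTA3 and ALDH1A1 in kidney and of SULT2A1, AOX1 and SULT1B1 in liver, each point 1 sample, with vertical axes that differ between panels. The kidney genes part between male and female from 2 months, with SULT2A1 at 8.22 in the 4-month male against 2.72 in the female, and the liver genes lie lower in the male.

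In liver the male had the lower value of SULT2A1, AOX1 and SULT1B1 at all 4 ages. These genes too were chosen after their values were seen and carry no test. The share of all genes with this pattern is not given here. SULT2A1 had 7.45 and 7.53 in male and female at 1 week, 5.84 and 7.17 in the 4-week pair, 6.33 and 7.52 at 2 months and 6.41 and 7.26 at 4 months. AOX1 had 9.91 and 9.98, 10.98 and 11.28, 11.19 and 12.28, and 11.47 and 12.47, so that the pairs at 1 week nearly met and those at 2 and 4 months were 1.09 and 1.00 apart. SULT1B1 was lower in the male by 0.96 at 2 months and 1.57 at 4 months. SULT1A3, listed by accession, had the widest gap, 11.59 against 12.58 at 1 week and 9.38 against 12.26 at 4 months.

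At 2 years, members that differed by 2-fold or more from the 4-month male were counted in each tissue. They were 6 of 49 in liver, where 6.94% of all genes did, 4 in kidney (4.92%), 2 in spleen (5.81%) and 2 in cerebellum (3.27%). In cortex 0 differed (2.68%), in hypothalamus 3 (4.14%) and in testis 6 (5.44%). Of these, 1 in kidney and 1 in hypothalamus were measured in neither sample. Liver GSTA4 was at 8.68, below all samples of 2 and 4 months (10.26 to 11.39), and liver GSTA3 at 10.77, above theirs (9.13 to 10.22). In bone marrow 17 of 49 differed, 1 of them measured in neither sample, in a pair of arrays where 22.1% of all genes did. Among these SULT1B1 was at 5.55 (2.46 to 3.25 at 2 and 4 months), EPHX3 at 9.43 (6.54 to 7.61), ALDH6A1 at 6.58 (4.27 to 4.94) and ALDH16A1 at 4.88 (7.12 to 7.78). In this marrow sample the 4 adipocyte markers summed to 16.04 (11.90 to 14.82 at 2 and 4 months, LPL not measured), the erythroid markers to 13.34 (17.08 to 17.12, with SLC4A1 among those not measured) and the myeloid markers to 9.84 (15.78 to 16.17). Their part was not tested.

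Testis and ovary had 1 sample per age and no test. In testis GSTO2 had the widest range of the members, 3.81 at 1 week, 4.38 in the 4-week pig, 10.22 at 2 months, 10.68 at 4 months and 10.09 at 2 years, 117-fold from lowest to highest. EPHX3, an epoxide hydrolase of lipid epoxides, rose in the same samples, from 6.77 and 7.66 to 9.57, 10.29 and 9.15 (11.5-fold). GSTT1 ran the other way, 8.49, 7.70, 4.33, 3.64 and 4.16, at least 28.8-fold from highest to lowest. GSTA4 fell from 13.18 and 12.77 to 10.37, 10.39 and 9.76 (10.7-fold). AKR1C3, which makes testosterone from androstenedione, had 6.21 at 1 week, 4.40 at 4 weeks and values near background later, at least 9.52-fold lower, with 1 of its probes left out at 2 and 4 months. Its probe pair differed in level by 2.90 over the 56 samples, so values with and without that probe are not on one scale. GSTO1 dipped to 8.46 at 2 months from 11.53 at 4 weeks and was at 11.56 at 2 years.

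The 6 spermatid markers of the same testis samples summed to 7.42 and 7.32 at 1 and 4 weeks, with 5 of 6 not measured, and to 17.10, 17.18 and 17.11 from 2 months on. The Sertoli and granulosa markers summed to 10.36 and 10.17 and then 7.97, 8.35 and 7.61, and the steroidogenic markers to between 15.99 and 16.19 throughout. Their part in the enzyme values was not tested. SULT1C3, which is outside the genes with the widest range, was measured in all 5 testis samples, from 10.09 to 11.66.

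**Figure D5:**
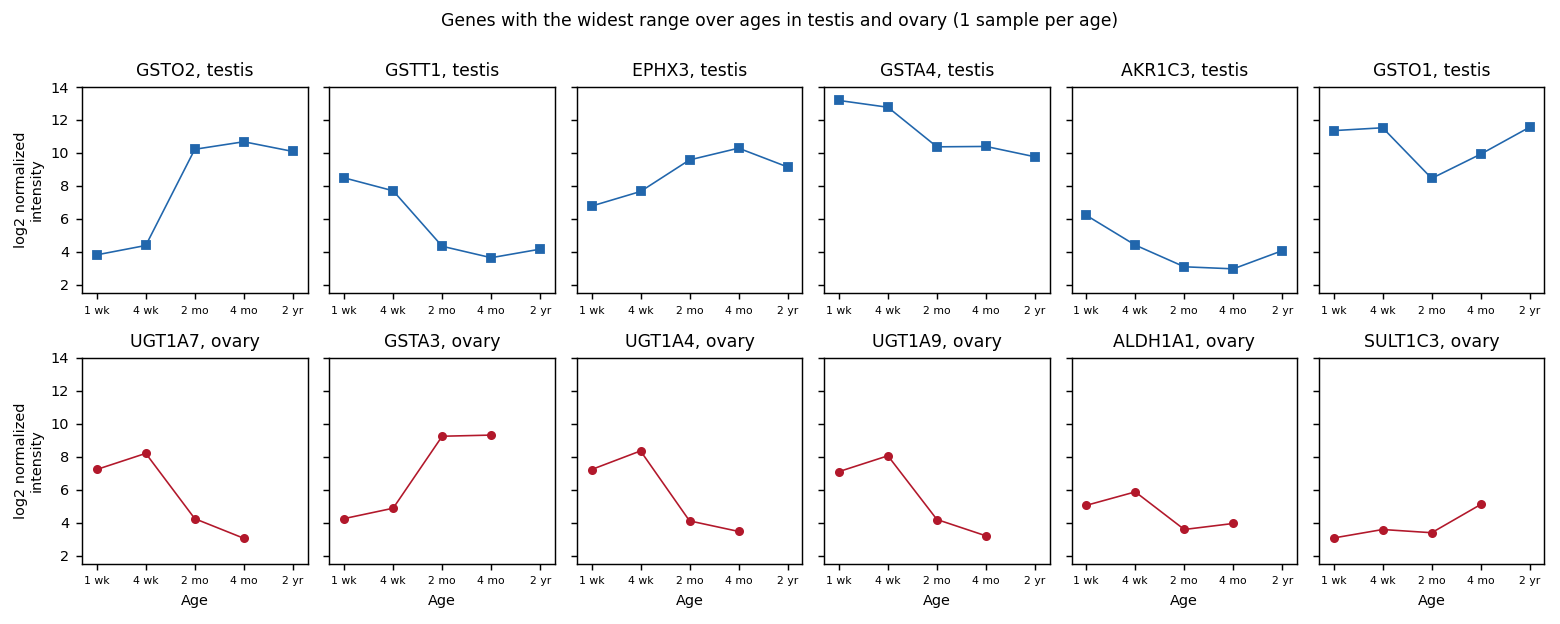
Log2 level by age of the 6 members with the widest range in testis and the 6 in ovary, 1 sample per age, testis to 2 years and ovary to 4 months. In testis GSTO2 and EPHX3 rise and GSTT1 and GSTA4 fall between 4 weeks and 2 months, and in ovary the UGT1A genes fall and GSTA3 rises over the same step.

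In ovary the UGT1A signal fell while GSTA3 rose. UGT1A7 had 7.23 at 1 week, 8.21 in the 4-week pig, 4.24 at 2 months and 3.05 at 4 months, at least 35.6-fold from highest to lowest, and UGT1A4 and UGT1A9 gave at least 29.6-fold and 29.0-fold. GSTA3 had 4.25, 4.88, 9.25 and 9.32 (33.6-fold), and both of its probes rose. ALDH1A1 went from 5.05 and 5.87 to 3.59 and 3.95 (4.87-fold), and SULT1C3 from 3.07 to 5.10 (4.09-fold). By accession AKR1CL1 had 8.74, 8.06, 10.10 and 14.29 (75.5-fold), and CES1 9.70, 11.23, 8.98 and 5.24 (63.5-fold). In the same samples the 4 steroidogenic markers summed to 5.76, 6.98, 10.75 and 14.10. From 2 months on the sum was mostly INSL3 (4.36, 6.32, 10.71 and 13.93). CYP17A1 stayed at 4.42 to 4.81. CYP11A1 was not measured in the first 2 and STAR was measured in 1 of 4 samples, and they were at 10.43 and 9.31 at 4 months. The Sertoli and granulosa markers summed to 7.22, 7.04, 8.21 and 11.62, with INHA at 5.94, 5.95, 7.89 and 11.59. SOX9 went from 6.32 to 5.88, and FOXL2 was measured in 1 of 4 samples. Of the lists fixed for other organs, the 5 epithelial markers used for bile duct summed to 10.43, 10.77, 9.42 and 8.30 in ovary, with KRT19 at 9.23, 9.37, 7.15 and 6.88 and EPCAM at 9.30, 9.86, 8.78 and 6.02, and the 10 hepatocyte markers to 8.58, 10.80, 9.06 and 9.08, with ALB and TTR among those not measured at 1 and 4 weeks. Their part in the enzyme values was not tested.

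A single array of renal pelvis, the urine-collecting space of the kidney, came from the 2-year male and was set beside the 8 repeats of its kidney. AKR1B1 was at 14.77 there and at 10.12 to 10.22 in the repeats, 24.0-fold higher, and both of its probes gave the difference (4.54 and 4.62). Aldose reductase makes the osmolyte sorbitol in the renal medulla. GSTA4 was 3.12-fold, GSTT1 2.58-fold and EPHX3 2.41-fold higher, and 21 members were at least 2-fold lower, beside 4.83% of all genes, led by GSTO1 (7.05-fold) and AOX1 (log2 difference -2.73). Of these 21, SULT1B1 was measured in neither the pelvis nor the repeats. The proximal tubule markers summed to 11.40 in the pelvis and 13.54 in the kidney, with 5 of 8 not measured in the pelvis. The loop and distal tubule markers were all measured in the pelvis array, with KCNJ1 at 12.98 and SLC12A1 at 12.04. Of the collecting duct markers AQP2 was at 10.24, and SLC26A4 was not measured. The part of these tubule cells in the AKR1B1 value was not tested. The labels give 1 sample of renal pelvis, and no spread between animals is known.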

How the data were processed

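The authors deposited 1 scanner output per one-color custom array, with the raw median intensity of each 60-mer probe spot; the submitters' processing notes name Agilent Feature Extraction 11.5.1.1. The deposited intensities are not normalized between arrays. The authors' value table holds their own processed log2 values of the same arrays, and its values were used as an alternative. Samples were grouped from the deposited labels.

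Following the normalization named in the methods of the study, raw median intensities of the 80 arrays were background corrected in limma 3.58.1 under R 4.3.3 (normexp, saddle, offset 0), quantile normalized and log2 transformed, and spots and then probes of a gene were averaged. Spots marked as outliers were left out, 10 to 590 per array. The 8 repeats of the 2-year kidney were averaged, which gave 72 tissue samples, and 14 genes with a missing value were dropped. Genes are named as in the files, and 3022 accessions were matched to RefSeq symbols. Array design coordinates were not used here. Of the members 44 of 49 have 2 probes, and 18 are measured only by probes whose names carry the tag Xhyb, which the files do not explain. The median raw intensity was 27 to 89 per array and that of negative controls 17 to 25, which limits the precision of low genes. Where a group was not well above background, folds are lower bounds against the higher of the lowest signal well above background on each array and the gene's own value.

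Tests were fitted with limma lmFit and eBayes on all 23722 genes, with Benjamini-Hochberg adjustment per comparison at 0.05. Age was tested in each tissue over 8 samples, the first weeks and the difference between liver and kidney over 56 samples with a mean per tissue and age, tissues over 56 samples at 4-fold or more, and sex over 28 pairs as a block. On simulated data 200 genes per comparison were changed 4-fold up or down, with independent noise sized from the male and female pairs. Of them 198 (age, liver), 188 (first weeks, liver), 196 (liver minus kidney), 200 (tissue, liver) and 200 (sex) were recovered. Other genes called were 14, 9, 4, 16 and 7. The noise held no spread between ages, and the member changes called after 4 weeks were smaller than 4-fold, so these counts do not give the power of those tests. Per test up to 10 called members in each direction are named, up to 4 for the remaining tissues and per list of other pathway genes, the 6 with the widest range in testis and ovary, and 16 enzymes regardless of their values. The members and lists were chosen with earlier results of these data known. Alternatives covered the signal column, offset, scaling, the authors' values, a dim gene filter, a 2-fold limit, slide and sex as blocks and single samples left out. Leaving out Xhyb probes, leaving out probes missing on any array, and the first weeks of spleen and bone marrow were added after seeing the data. Further software was Python 3.11.15, pandas 2.3.3, numpy 2.4.6 and matplotlib 3.10.9. Single values of a few genes on the lists are not reported here. Sequences were not analysed here.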

Additional observations from a re-analysis of the deposited data

Results flagged for a closer look

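The age change of 5 members differed between liver and kidney in a test of the difference itself (limma, adjusted over all genes): ALDH1L1 by -0.94, ALDH3A1 by -1.73, GSTZ1 by -1.14 and SULT2A1 by -2.65, all toward a higher change in kidney, and GSTA4 by 1.47, with the fall in kidney. Of these, SULT2A1 in kidney was well above background only in the males of 2 and 4 months among the 8 samples tested.

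In 3 of 56 groups tested for it (5.36%) 1 sample lay far from the rest, and chance gives about 1 in 20. All were 4-month livers. GSTK1 was at 12.04 in the female with the next sample at 11.32, GSTT1 at 8.55 in the male with the next at 9.61, and SULT1B1 at 4.07 in the same male with the next at 5.17.

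AKR1B1 in the renal pelvis array, which enters no comparison between groups, was at 14.77, above the 10.12 to 10.22 of the 8 kidney repeats of the same male.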

How the results depend on the processing

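No called value of a named gene changed sign under any alternative run; 746 such values kept their side of the threshold and 57 no longer passed it. Counts of called members within 1.5 times of the reported ones are not repeated, and the cause of each move was not tested unless it is stated. With the processed signal, 3 members were called with age in liver and 0 over the 5 other tissues, and with median scaling 2 in liver. An offset of 50 gave 3 in kidney and 5 over the other tissues with age, and 6 in liver in the first weeks. The filter on dim genes gave 5 over the other tissues with age and 1 in liver in the first weeks. Slide as a covariate gave 1 in liver in the first weeks and 2 for liver minus kidney. A 2-fold limit left 0 over the other tissues with age, 3 in kidney and 7 in spleen in the first weeks, and at 2-fold in place of 4-fold 21 members were called for kidney and 13 over the other tissues. Leaving out probes tagged Xhyb, chosen after seeing the data, left 31 members to test and gave 3 for kidney with age, 2 in bone marrow in the first weeks, 2 for liver minus kidney, 11 for liver and 6 for kidney by tissue.

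Without single samples the counts ran from 1 to 2 (age, liver), 0 to 7 (age, kidney), 0 to 8 (age, other tissues; 8 without the 2-month male bone marrow), 1 to 2 (first weeks, liver; 1 without the 1-week male or the 4-week female), 2 to 6 (first weeks, kidney; 2 without the 1-week male, the 4-week male or the 4-week female), 9 to 12 (spleen), 3 to 4 (bone marrow), 3 to 8 (liver minus kidney; 8 without the 4-month female of either organ), 22 to 22 (tissue, liver), 12 to 14 (tissue, kidney), 5 to 6 (tissue, others) and 0 to 0 (sex). With 2 samples a group, a fit without 1 assumes that the lone sample varies like the other groups. Counts under a replicate block by sex were 1 for liver and 5 for kidney with age, 3 and 8 in the first weeks, 13 in spleen and 6 for liver minus kidney, within 1.5 times of those without it, and the sex test without its block also gave 0. Slide as a random block was not run in the tests of 1 tissue, since each slide holds at most 1 sample of a tissue. Signal over background limits what can be said of low members, and 3 of 49 were measured in no sample of any tissue.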
